A study of Mus musculus with 8 samples.

Results

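The genes of the synaptic vesicle and release machinery were followed through retinal development in 8 RNA-seq libraries. These are 43 of the 21830 genes measured, chosen by symbol: the synaptotagmins, synapsins, core SNAREs, complexins, RIM and Munc13 priming factors, Rab3 GTPases, vesicle membrane proteins, and the proteins that recycle vesicles and take SNARE complexes apart. All 43 symbols were found, each in 1 row. The libraries came from wild-type slc:ICR mice, as whole retina at E15 and E18 and, at P2, P5 and P8, as 2 fractions sorted by a cell surface antibody against Cd73: Cd73-positive cells (Cd73PC), which are enriched in rod photoreceptors, and Cd73-negative cells (Cd73NC), which hold everything else. Retinas of several animals were pooled for a sort, and each condition has 1 library, so no difference here could be set against a replicate error and no test was made. Levels are in FPKM, which is scaled to transcript length and library size. A gene was called higher or lower, or said to have risen or fallen, when its FPKM + 1 differed by at least 1.5-fold, and differences are given as log2 ratios of FPKM + 1.

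A synaptic vesicle is docked and primed at the active zone, where the vesicle SNARE synaptobrevin pairs with syntaxin and SNAP-25 on the plasma membrane. Complexin holds and assists the assembled complex, and calcium binding to synaptotagmin triggers fusion. NSF and the SNAP adaptors then take the spent SNARE complex apart, and clathrin-based endocytosis restores the vesicle. Rods and bipolar cells release glutamate continuously from ribbon synapses, whereas amacrine and ganglion cells use conventional synapses, and the isoforms of several of these families differ between the 2 kinds of synapse.

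Sorting and cell makeup were read from the libraries themselves. Nt5e, which encodes Cd73, was at FPKM 97.3, 131 and 124 in Cd73PC at P2, P5 and P8 and at 2.43, 31.4 and 9.38 in Cd73NC. The summed FPKM of 8 rod markers was 3221, 7093 and 11862 in Cd73PC and 50.4, 806 and 775 in Cd73NC, so the Cd73NC libraries of P5 and P8 held rod marker RNA as well. At P8 the 7 bipolar markers summed to 2164 in Cd73NC and to 247 in Cd73PC. The 6 ganglion cell markers summed to 817 at E15 and 529.9 at E18, and to between 1.84 and 13.4 in the sorted libraries. In 5 of the 6 sorted libraries at least 4 of these 6 markers were below FPKM 1. Of the 7 amacrine markers 2 were not analysed here, and the other 5 summed to between 40.0 and 239.9. These 5 did not go one way: Slc6a9 stood at 47.9, 72.3 and 50.7 in Cd73PC from P2 to P8. In Cd73NC it stood at 6.56, 40.7 and 10.4. The values of Gad1, Gad2, Ptf1a and Pax6 were lower in Cd73PC than in Cd73NC at each age. The depth of the libraries relative to E18 ranged from 0.967 to 1.61, and the absolute depth is unknown. In libraries of mixed cells, fewer cells of a type and less RNA per cell cannot be told apart.

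The summed level of the release genes was higher at the later age in whole retina and in each fraction. Their summed FPKM was 816 at E15 and 1023 at E18. It was 672, 1201 and 2332 in Cd73NC and 2123, 2623 and 2891 in Cd73PC at P2, P5 and P8. In Cd73PC the sum was carried by few genes: the median member stood at FPKM 6.69, 4.93 and 3.51 there, against 5.94, 5.33 and 14.2 in Cd73NC. Of the 43 genes, 42 reached FPKM 1 in at least 1 library and 25 did so in all of them. Syt12 alone stayed below FPKM 1 throughout.

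**Figure D1:**
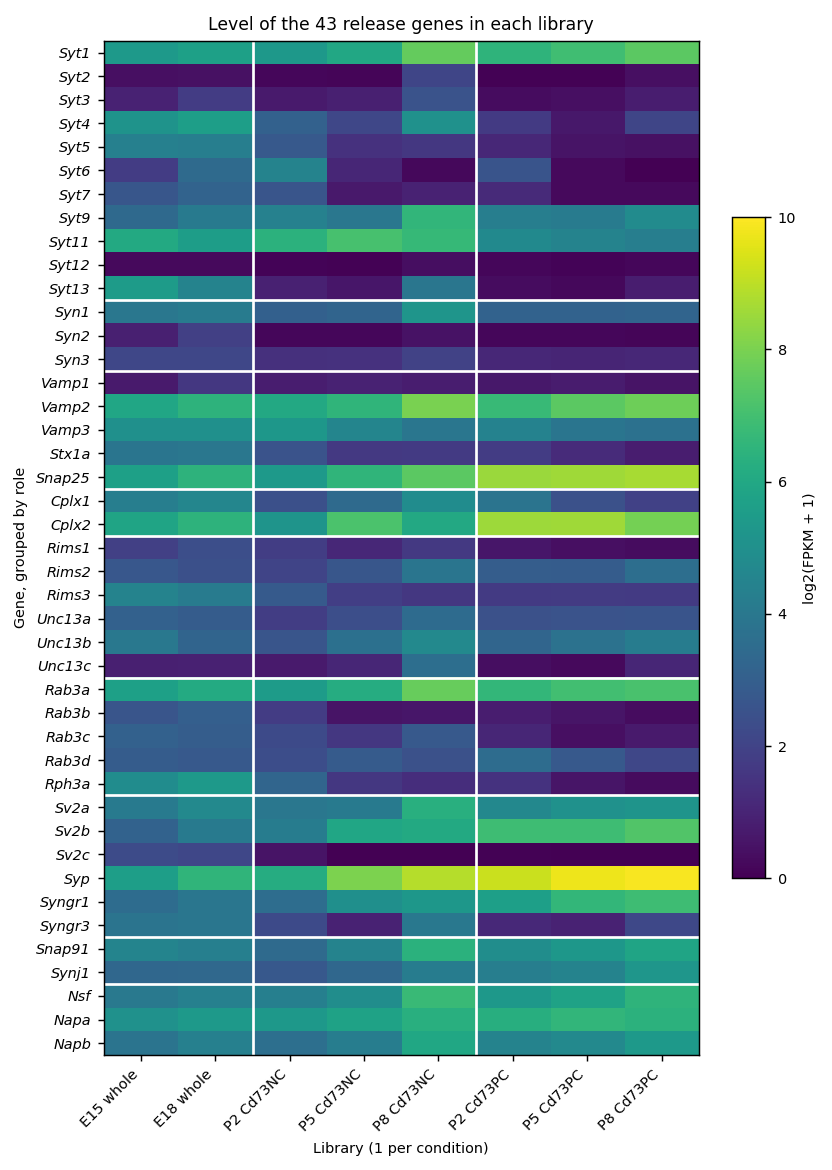
Heat map of log2(FPKM + 1) for the 43 release genes (rows, grouped by role) in the 8 libraries (columns, 1 per condition). The brightest cells are Syp in Cd73PC, at FPKM 582, 857 and 956, and 27 of the 43 rows rose by at least 1.5-fold from the P2 to the P8 Cd73NC column.

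The promoters of 3 of the 6 genes that were higher in Cd73PC at P2, P5 and P8 are shown here, Syp and Sv2b because theirs hold TAATCC, the core that the photoreceptor factors Crx and Otx2 recognise, and Cplx2 as one that does not. They were chosen after the search, and of the other 3 genes Syngr1 and Synj1 also had no TAATCC and Snap25 had no entry. Bases before the annotated start are printed 5′ to 3′ on the gene's own strand, from RefSeq on build GRCm38.p6, up to the first base found in a GENCODE vM1 transcript of the gene, and capitals mark TAATCC or, on the other strand, GGATTA.
Syp, chrX:7638330-7638470, plus strand: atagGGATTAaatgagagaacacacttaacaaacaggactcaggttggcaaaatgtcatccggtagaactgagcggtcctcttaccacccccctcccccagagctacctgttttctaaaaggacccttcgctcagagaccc
Sv2b, 1 of the 4 starts in the table, chr7:75302610-75302859, minus strand: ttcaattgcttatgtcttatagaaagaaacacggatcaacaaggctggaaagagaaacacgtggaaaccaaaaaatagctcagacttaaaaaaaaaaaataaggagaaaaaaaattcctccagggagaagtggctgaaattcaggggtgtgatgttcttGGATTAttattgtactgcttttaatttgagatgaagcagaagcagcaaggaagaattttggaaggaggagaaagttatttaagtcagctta
Cplx2, chr13:54302306-54302555, plus strand: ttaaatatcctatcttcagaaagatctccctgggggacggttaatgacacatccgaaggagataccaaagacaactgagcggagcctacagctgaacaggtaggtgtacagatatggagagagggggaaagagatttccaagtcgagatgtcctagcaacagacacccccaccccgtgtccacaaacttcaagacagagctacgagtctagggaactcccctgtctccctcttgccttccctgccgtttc
The match lay 246 bases before the start in Syp and 91 bases before it in the Sv2b promoter shown, and Cplx2 had none. Promoters were available for 32 of the 43 genes, from 250 bases before to 50 bases after the start. TAATCC was present on either strand in the promoters of 3 of these genes, Rims3, Sv2b and Syp, and in 4 of their 44 promoters (9.09%), against 7.06% of all 32851 promoters. TGCTGA, a half-site of the rod factor Nrl, was present in 8 of the 44 (18.2%), against 19.5% of all. TTCAGCACC, a part of the RE1 element that the neuronal repressor Rest binds, was present in 2 of the 44 (4.55%), those of Syn1 and Unc13a, against 0.371% of all. TTCAGCACC holds TGCTGA on its other strand, so these 2 promoters are also among the 8, and a match describes letters and not a bound site.

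Comparison of the fractions of the same age asked which release genes were carried by rods and which by the other cells. More of them were higher than lower in Cd73PC at P2, and more were lower than higher at P8. At P2, 19 of the 43 release genes were higher in Cd73PC, against 8.57% of all genes and 14.5% of genes with an FPKM of at least 1, and 14 were lower, against 14.4% and 25.0%. With a pseudocount of 0.1 there were 19 higher and 18 lower at P2. At P5, 13 were higher (7.02% of all genes, 12.3% with an FPKM of at least 1) and 10 lower (15.6% and 27.0%), and with a pseudocount of 0.1 there were 13 higher and 16 lower. At P8, 6 were higher (7.54%) and 20 were lower (18.6%). As shares, 44.2% of the release genes were higher at P2 and 14.0% at P8, where 13.0% of genes with an FPKM of at least 1 were higher, and 46.5% were lower at P8, where 31.3% of such genes were lower. The median log2 ratio of the release genes was 0.02 at both P2 and P5 and -0.54 at P8, with medians over all genes of 0.00, 0.00 and -0.02. Over the members with an FPKM of at least 1 the P2 median was 0.66, and with a pseudocount of 0.1 the P8 median was -0.85. Of the 43 genes, 35, 33 and 36 passed FPKM 1 in a library of the pair at the 3 ages. Among these, 19 of 35 were higher at P2, and 6 of 36 were higher and 19 of 36 lower at P8. Markers of other cells also differed between the fractions, but not all of them turned with these counts. The Cd73PC sum of the microglia markers was 25.5 at P2, against 4.29 for Cd73NC, and 70.6 against 90.5 at P8. Müller glia, horizontal cell and erythroid markers had the smaller sum in Cd73PC at both ages. For Müller glia these sums were 478 against 1089 at P2 and 319 against 1222 at P8, although the Müller glia marker Apoe was higher in Cd73PC at P2 (162 against 110.0). Horizontal cell markers gave 7.74 against 20.2, then 21.7 against 167. Most of these sums was Prox1, at 4.76 against 18.1, then 21.2 against 166. The other horizontal cell markers, at FPKM 1.61 or less in these libraries, did not go one way. Onecut1 and Calb1 were higher in Cd73PC at both ages, Onecut2 was lower at both, and Lhx1 was lower at P2 and higher at P8. Erythroid markers gave 36.5 against 106, then 2075 against 5170.0. The part of all these markers in the counts, and that of the rod and bipolar markers, was not tested.

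**Figure D2:**
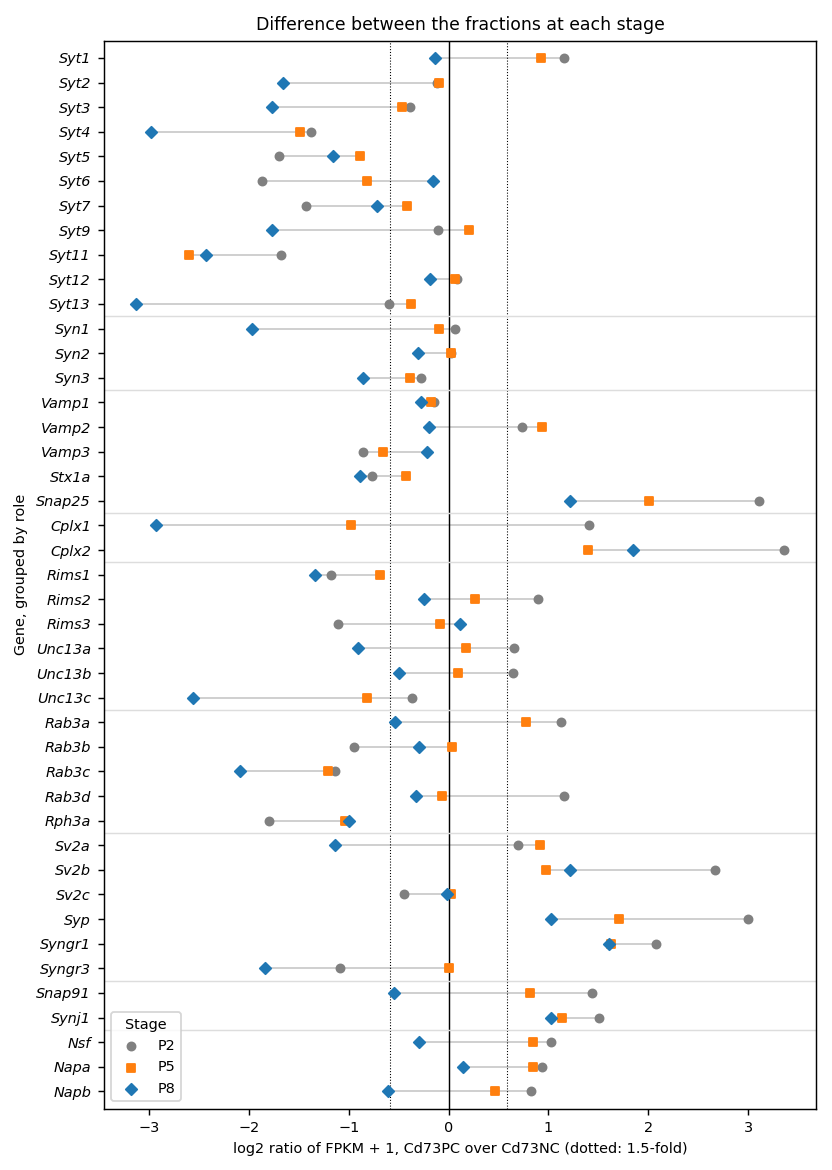
Log2 ratio of FPKM + 1 in Cd73PC over Cd73NC for each release gene at P2 (circles), P5 (squares) and P8 (diamonds), with dotted lines at 1.5-fold. Snap25, Cplx2, Sv2b, Syp, Syngr1 and Synj1 lie right of the upper dotted line at all 3 ages, while Cplx1 runs from 1.41 at P2 to -2.93 at P8.

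Snap25, Cplx2, Sv2b, Syp, Syngr1 and Synj1 were higher in Cd73PC at all 3 ages, which is 6 of 43 against 3.51% of all genes and 6.50% of those reaching FPKM 1. In the same 6 genes each of the Cd73PC libraries stood above all 5 other libraries, as it did in 7.25% of all genes and 10.9% of those reaching FPKM 1. Another 6, Syt1, Vamp2, Rab3a, Snap91, Nsf and Napa, were higher at P2 and P5 and within 1.5-fold at P8. Syt4, Syt5, Syt11, Rims1, Rab3c and Rph3a were lower at all 3 ages, which is 6 of 43 against 7.83% of all genes and 14.3% of those reaching FPKM 1. That count was 13 with a pseudocount of 0.1, 10 without P5 and 3 at a 2-fold threshold. Of the 43 genes, 31 reached FPKM 1 in a library of the pair at every age. The 6 higher and the 6 lower at all 3 ages were among these 31. Syt12, Syn2, Vamp1 and Sv2c stayed within 1.5-fold at every age, all of them at an FPKM below 1 in each sorted library.

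Among the vesicle membrane proteins, synaptophysin (Syp, chrX:7215706-7230382 on NCBI37/mm9), an abundant protein of small synaptic vesicles, reached the highest level of any member. Syp was at FPKM 48.2 at E15 and 92.4 at E18, at 72.0, 261 and 468 in Cd73NC at P2, P5 and P8, and at 582, 857 and 956 in Cd73PC. Every Cd73PC value exceeded every other value, and the log2 ratio was 3.0 at P2, then 1.71 at P5 and 1.03 at P8 as the gene rose in Cd73NC. In the annotation, 17.2% of the Syp exon bases are shared with Gm14703, and the reads carry no strand.

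Sv2b (chr7:82259781-82454148) and Sv2a encode alternative forms of the vesicle glycoprotein SV2, and they parted between the fractions. Sv2b stood at FPKM 117, 118 and 157 in Cd73PC and 17.5, 59.3 and 66.9 in Cd73NC from P2 to P8, after 7.77 at E15 and 16.5 at E18. Its log2 ratio was 2.67 at P2, then 0.98 at P5 and 1.22 at P8, with every Cd73PC library above all others. Sv2a stood at FPKM 24.6, 32.0 and 34.9 in Cd73PC and 14.8, 16.4 and 78.4 in Cd73NC from P2 to P8, after 16.5 at E15 and 25.2 at E18. It was higher in Cd73PC at P2 and P5 (0.70 and 0.92) and lower at P8 (-1.14), where the Cd73NC library stood above the other 7. Sv2b made up 81.8% of the summed FPKM of the 3 SV2 genes in Cd73PC at P8 and 46.0% in Cd73NC, where Sv2a made up 54.0%. Sv2c was at 3.83 at E15 and 3.37 at E18, and at 0.440 or less in every sorted library, listed at 0 in Cd73PC at P8.

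The synaptogyrins, relatives of synaptophysin, were split in a similar way. Syngr1 measured FPKM 10.6 and 14.0 in whole retina at E15 and E18, 10.8, 30.6 and 37.8 in Cd73NC and 49.2, 96.8 and 118 in Cd73PC. Its log2 ratio was 2.08 at P2, then 1.63 at P5 and 1.61 at P8, and no Cd73PC value overlapped the others. Syngr3 lay between 0.945 and 15.1 and was lower in Cd73PC at P2 (-1.09) and P8 (-1.84). At P8 the level of Syngr1 in Cd73NC was 32.1% of that in Cd73PC, whereas the 8 rod markers in Cd73NC were at 5.13% to 7.87% of their Cd73PC levels. Across the 6 genes higher at all ages, the corresponding share at P8 ran from 27.3% for Cplx2 to 49.0% for Syp, above the range of the rod markers in each case. How much of the Cd73NC level came from rods in that fraction was not tested.

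**Figure D3:**
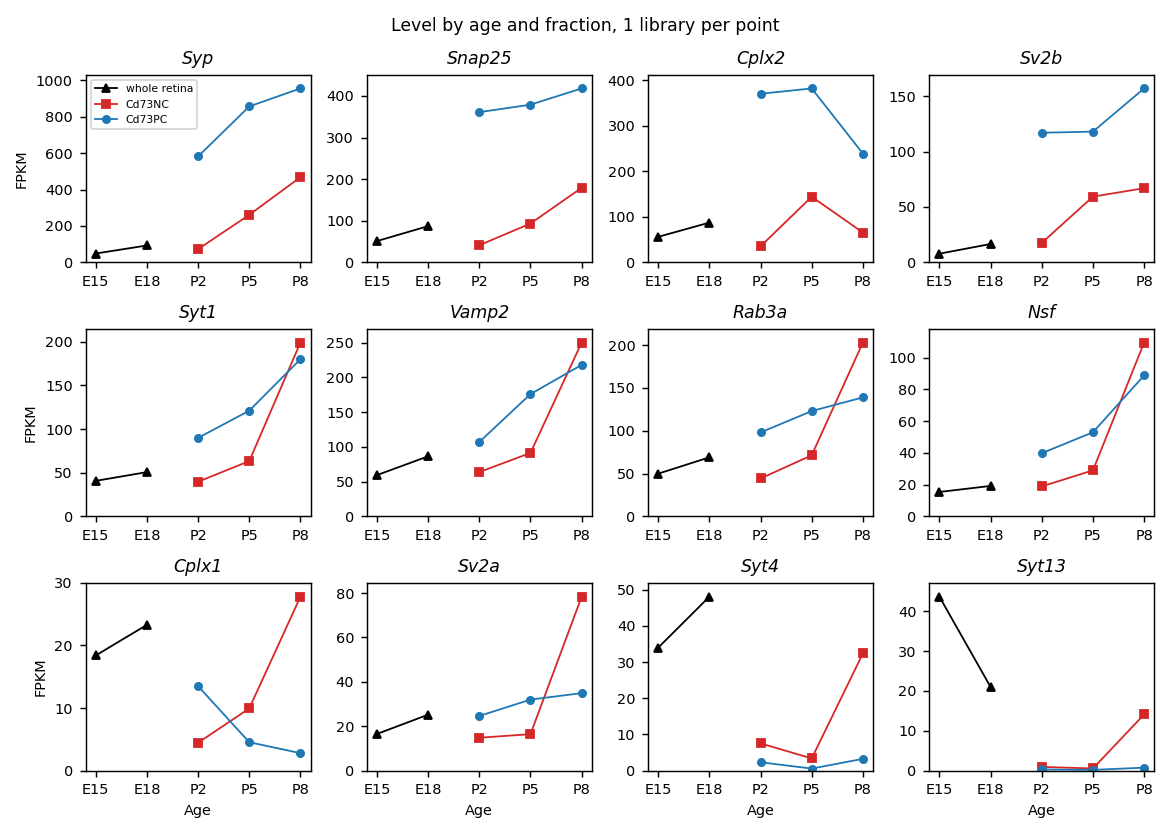
FPKM of 12 release genes against age, with whole retina (triangles), Cd73NC (squares) and Cd73PC (circles), 1 library per point and an axis from 0 in each panel. Syp, Snap25, Cplx2 and Sv2b stay apart between the fractions, Syt1, Vamp2, Rab3a and Nsf meet or cross at P8, and Cplx1, Sv2a, Syt4 and Syt13 stand higher in Cd73NC at P8.

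Of the SNAREs, Snap25 (chr2:136539186-136608164), the plasma membrane SNARE named for its size, differed most between the fractions. Snap25 was at FPKM 51.0 at E15 and 87.0 at E18, at 41.0, 93.2 and 179 in Cd73NC at P2, P5 and P8, and at 361, 379 and 418 in Cd73PC. The 3 Cd73PC values were close to each other and all above the others, and the log2 ratio was 3.11 at P2, then 2.01 at P5 and 1.22 at P8. Vamp2, the main synaptobrevin of the retina and brain, behaved otherwise. Vamp2 measured FPKM 59.4 and 86.5 in whole retina at E15 and E18, 63.8, 91.3 and 250.1 in Cd73NC and 107, 176 and 218 in Cd73PC. It was higher in Cd73PC at P2 (0.74) and P5 (0.94), and at P8 the fractions lay within 1.5-fold (-0.20).

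The other SNARE genes were lower or weak. Stx1a, a syntaxin of conventional synapses, went from 13.7 at E15 and 14.8 at E18 to 2.25 in Cd73NC and 0.754 in Cd73PC at P8. Vamp3, a broadly expressed relative of Vamp2, went from 31.0 at E18 to 14.2 and 12.1. Vamp1 was between 0.424 and 2.11. The syntaxin of ribbon synapses, Stx3, is not a member and is given for comparison with Stx1a. Stx3 measured FPKM 5.90 at E15 and 15.2 at E18, 10.7, 42.5 and 96.8 in Cd73NC, and 90.3, 172 and 209 in Cd73PC. Stx3 was thus below Stx1a at E15 and above it in every sorted library.

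Complexins Cplx1 and Cplx2, which clamp and assist the SNARE complex, diverged with age. Cplx2 (chr13:54472713-54485278) was at FPKM 55.9 at E15 and 87.2 at E18, at 35.1, 144 and 65.4 in Cd73NC at P2, P5 and P8, and at 370.3, 382 and 239 in Cd73PC. Its log2 ratio was 3.36 at P2, then 1.40 at P5 and 1.85 at P8, and all Cd73PC libraries stood above all others, although the P8 value was the lowest of them. Cplx1 (chr5:108947573-108979046) measured FPKM 18.4 and 23.3 in whole retina at E15 and E18, 4.44, 9.93 and 27.8 in Cd73NC and 13.5, 4.53 and 2.78 in Cd73PC. It was the 1 release gene higher at P2 and lower at P5, with log2 ratios of 1.41 at P2, then -0.98 at P5 and -2.93 at P8. Cplx1 fell in Cd73PC from P2 to P8 (-1.94) while it rose in Cd73NC (2.41). At P8 the 7 bipolar markers in Cd73PC were at 7.70% to 18.6% of their Cd73NC levels, and their part in the Cplx1 difference was not tested.

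Cplx3 and Cplx4, the complexins of ribbon synapses, are not members and are given for the shares within the family. Of the summed FPKM of the 4 complexins, Cplx1 and Cplx2 held 23.2% and 70.2% at E15. In Cd73NC at P8 the order was Cplx3 at 69.5%, Cplx2 at 19.1%, Cplx1 at 8.11% and Cplx4 at 3.37%. In Cd73PC at P8 it was Cplx2 at 49.7%, Cplx3 at 27.3%, Cplx4 at 22.4% and Cplx1 at 0.577%. Cplx4 was higher in Cd73PC at all ages, with log2 ratios of 2.63, 2.73 and 3.12.

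**Figure D4:**
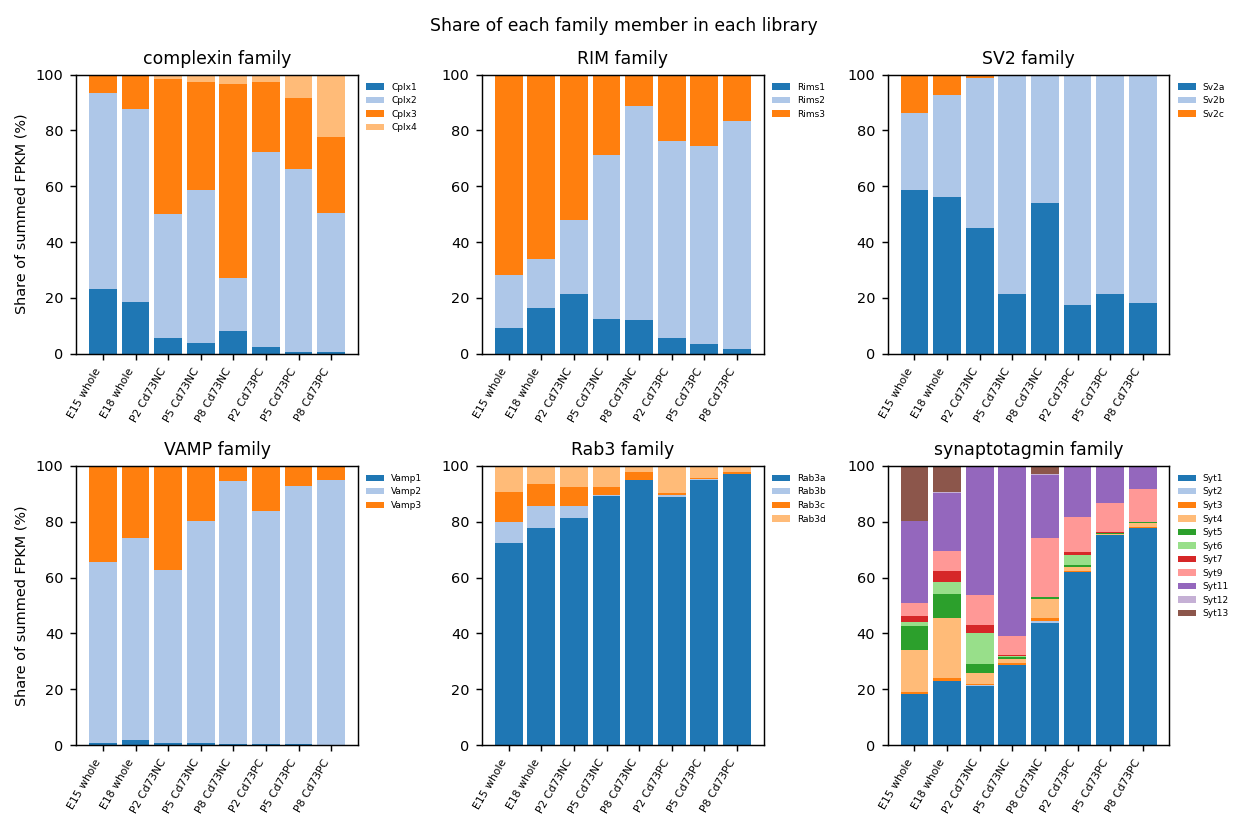
Share of the summed FPKM held by each member of 6 gene families (complexins, RIMs, SV2, VAMP, Rab3 and synaptotagmins) in each of the 8 libraries, as stacked bars that add up to 100%. Rims2 grows from 19.1% at E15 to 81.7% in Cd73PC at P8, Sv2b holds 81.8% in Cd73PC and 46.0% in Cd73NC at P8, and Syt1 holds 77.7% and 43.6%.

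Of the synaptotagmins, Syt1, the fast calcium sensor of most synapses, was the most abundant in both P8 libraries. Syt1 was at FPKM 40.7 at E15 and 50.7 at E18, at 39.7, 63.3 and 199 in Cd73NC at P2, P5 and P8, and at 89.9, 121 and 179.9 in Cd73PC. It was higher in Cd73PC at P2 (1.16) and P5 (0.93), and the fractions lay within 1.5-fold at P8 (-0.14). Syt1 held 18.3% of the summed FPKM of the 11 synaptotagmins at E15, 43.6% in Cd73NC at P8 and 77.7% in Cd73PC at P8.

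Syt11, an atypical synaptotagmin that does not bind calcium, had the opposite distribution. Syt11 measured FPKM 65.8 and 46.6 in whole retina at E15 and E18, 85.0, 134 and 104 in Cd73NC and 25.9, 21.2 and 18.4 in Cd73PC. Its log2 ratio was -1.68 at P2, then -2.60 at P5 and -2.43 at P8, and every Cd73PC value lay below every other value. The summed FPKM of the Müller glia markers was also lower in Cd73PC, at 1089, 1510.5 and 1222 in Cd73NC and 478, 402 and 319 in Cd73PC. Rlbp1, Glul, Slc1a3 and Dkk3 were lower in Cd73PC at each age, but Apoe was higher there at P2 (162 against 110.0). In Cd73NC Glul and Dkk3 fell from P2 to P5 and P8, whereas Syt11 was highest at P5. The part of these markers in the Syt11 levels was not tested.

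The other 9 synaptotagmins were at FPKM 95.8 or less, and none was higher in Cd73PC at any age. Syt9 was within 1.5-fold at P2 and P5 and lower at P8 (-1.77), where it measured 95.8 in Cd73NC and 27.5 in Cd73PC. Syt4 was lower at every age, at -1.38, -1.49 and -2.98, and Syt13 reached -3.13 at P8. Syt13 measured 14.1 in Cd73NC and 0.721 in Cd73PC at P8. Bipolar markers summed to 2164 and 247 there, and their part in the Syt13 difference was not tested. Syt2, which is used at fast synapses, was at 3.25 in the P8 Cd73NC library and at 0.374 or less in all others. Syt6 went the other way in age, from 21.1 in Cd73NC at P2 to 0.146 at P8. Of the 11 synaptotagmins, 6 were lower at P2, 4 at P5 and 8 at P8. Of all genes 14.4%, 15.6% and 18.6% were lower, and of those with an FPKM of at least 1, 25.0%, 27.0% and 31.3%. In the annotation 14.7% of the exon bases of Syt4 and 18.1% of those of Syt12 are shared with other genes.

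The synapsins, which tether vesicles to each other in the reserve pool and are scarce at ribbon synapses, were within 1.5-fold at P2 and P5, and 2 of the 3 were lower in Cd73PC at P8. Syn1 stood at FPKM 7.77, 7.73 and 8.46 in Cd73PC and 7.38, 8.33 and 36.1 in Cd73NC from P2 to P8, after 14.6 at E15 and 16.9 at E18. Its levels in Cd73PC hardly moved with age, and the log2 ratio was 0.06 at P2, then -0.10 at P5 and -1.97 at P8. Syn3 was also lower at P8 (-0.86), at 2.93 in Cd73NC and 1.17 in Cd73PC. That call was lost under quantile normalization, and with a pseudocount of 0.1 Syn3 was lower at P5 too. In the annotation 14.1% of the Syn3 exon bases are shared with Timp3. Syn2 was at 0.839 at E15 and 2.67 at E18 and at 0.385 or less in the sorted libraries.

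Of the priming factors, which make docked vesicles ready for fusion, Rims2 and the Munc13 genes Unc13a and Unc13b were higher in Cd73PC at P2 but not later. Rims2 was at FPKM 5.65 at E15 and 4.49 at E18, at 3.11, 5.33 and 13.8 in Cd73NC at P2, P5 and P8, and at 6.69, 6.55 and 11.4 in Cd73PC. The log2 ratio of Rims2 was 0.90 at P2, then 0.26 at P5 and -0.25 at P8. Unc13b measured FPKM 14.9 and 8.33 in whole retina at E15 and E18, 5.17, 11.9 and 24.9 in Cd73NC and 8.66, 12.7 and 17.3 in Cd73PC. Its log2 ratio of 0.65 at P2 was near the threshold of 1.5-fold, and at P8 it was -0.50. Unc13a stood at FPKM 4.52, 4.93 and 5.03 in Cd73PC and 2.49, 4.26 and 10.4 in Cd73NC from P2 to P8, after 7.58 at E15 and 6.46 at E18. It was higher at P2 (0.66) and lower at P8 (-0.91).

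Unc13c, a Munc13 form restricted to few neuron types, stood apart in 1 library. Unc13c was at FPKM 0.862 at E15 and 0.891 at E18, at 0.643, 1.11 and 11.4 in Cd73NC at P2, P5 and P8, and at 0.276, 0.196 and 1.10 in Cd73PC. Only the P8 Cd73NC library was far above 1, and the level in Cd73PC at that age was 9.65% of it. Rims1 was lower in Cd73PC at all ages, at -1.18, -0.69 and -1.34. Rims3 fell from 21.2 at E15 to 2.04 and 2.29 at P8, and Rims2 held 19.1% of the summed FPKM of the RIM genes at E15 and 76.6% and 81.7% in Cd73NC and Cd73PC at P8.

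Rab3a, the main vesicle GTPase of neurons, dominated its family. Rab3a measured FPKM 49.9 and 69.0 in whole retina at E15 and E18, 44.3, 71.4 and 203 in Cd73NC and 98.1, 123 and 139 in Cd73PC. It was higher in Cd73PC at P2 (1.13) and P5 (0.78) and within 1.5-fold at P8 (-0.54). Its share of the 4 Rab3 genes was 72.2% at E15, 94.8% in Cd73NC at P8 and 97.0% in Cd73PC at P8. Rab3c stood at FPKM 1.13, 0.340 and 0.632 in Cd73PC and 3.70, 2.11 and 5.97 in Cd73NC from P2 to P8, after 7.61 at E15 and 6.82 at E18. It was lower in Cd73PC at every age (-1.14 at P2, then -1.21 at P5 and -2.09 at P8). Rab3d, a form known from secretory cells, was at FPKM 6.42 at E15 and 5.86 at E18, at 4.18, 6.23 and 4.56 in Cd73NC at P2, P5 and P8, and at 10.6, 5.86 and 3.43 in Cd73PC. It was higher in Cd73PC at P2 alone (1.16). Rab3b was at 7.11 at E18 and below 1 in all sorted libraries except Cd73NC at P2. Rph3a, the Rab3 effector rabphilin, fell from 42.1 at E18 to 1.48 in Cd73NC and 0.239 in Cd73PC at P8.

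Of the 5 recycling and disassembly genes, 3 were higher in Cd73PC at P2 and P5 and within 1.5-fold at P8, as Syt1 and Vamp2 were. Synj1, the phosphatase that sheds the clathrin coat, measured FPKM 9.26 and 9.51 in whole retina at E15 and E18, 5.73, 9.20 and 17.6 in Cd73NC and 18.2, 21.5 and 37.1 in Cd73PC. For Synj1 the log2 ratio was 1.51 at P2, then 1.14 at P5 and 1.03 at P8. Snap91, the clathrin assembly protein AP180, was at FPKM 22.0 at E15 and 19.1 at E18, at 9.97, 21.0 and 83.0 in Cd73NC at P2, P5 and P8, and at 28.8, 37.8 and 56.4 in Cd73PC. It was higher at P2 (1.44) and P5 (0.82) and within 1.5-fold at P8 (-0.55).

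Nsf, the ATPase that unwinds SNARE complexes, stood at FPKM 39.8, 53.0 and 88.8 in Cd73PC and 18.9, 29.0 and 109.5 in Cd73NC from P2 to P8, after 15.4 at E15 and 19.2 at E18. For Nsf the log2 ratio was 1.03 at P2, then 0.85 at P5 and -0.30 at P8. Napa, which encodes the widely used adaptor alpha-SNAP, measured FPKM 32.6 and 40.3 in whole retina at E15 and E18, 39.0, 52.6 and 78.2 in Cd73NC and 75.8, 95.6 and 86.1 in Cd73PC. The log2 ratio of Napa was 0.94 at P2, then 0.85 at P5 and 0.14 at P8. Napb, the brain form beta-SNAP, was at FPKM 13.4 at E15 and 19.3 at E18, at 11.5, 17.9 and 61.9 in Cd73NC at P2, P5 and P8, and at 21.3, 25.1 and 40.3 in Cd73PC. It was higher at P2 (0.83), within 1.5-fold at P5 (0.47) and lower at P8 (-0.61), and under upper-quartile scaling or quantile normalization the P8 difference was below 1.5-fold.

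The genes Cplx1, Unc13a, Sv2a and Napb were thus higher in Cd73PC at P2 and lower at P8, which is 4 of 43 against 0.917% of all genes and 1.62% of those reaching FPKM 1. No release gene went from lower to higher except Rims3 under quantile normalization (0.211% of all genes did, and 0.376% of those reaching FPKM 1). The direction of these 4 did not turn under any scaling tried, but the P8 call of Unc13a was lost under quantile normalization, and at a 2-fold threshold the count was 1.

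The change with age was described next, first before birth. From E15 to E18 in whole retina 9 release genes rose, against 4.61% of all genes and 7.59% of those with an FPKM of at least 1. Over that interval 2 fell, against 2.10% and 3.47%. Those that rose were Syt6 (1.70), Syn2 (1.0), Sv2b (1.0), Syp (0.92), Vamp1 (0.92), Syt3 (0.79), Snap25 (0.76), Syt9 (0.66) and Cplx2 (0.63). Syt13 (-1.02) and Unc13b (-0.77) fell. The rod markers summed to 8.74 at E15 and 82.5 at E18 and the ganglion cell markers to 817 and 529.9.

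Within Cd73NC, 27 of the 43 release genes rose from P2 to P8, or 62.8%, against 13.5% of all genes and 21.6% of those with an FPKM of at least 1, and 8 fell, against 14.3% and 24.0%. The median log2 ratio was 1.71, where that of all genes was 0.00. The largest rises were those of Syt13 (2.98), Snap91 (2.94), Unc13c (2.92) and Syp (2.68). Rises covered every role: 6 of 11 synaptotagmins, 2 of 3 synapsins, 2 of 5 SNAREs, both complexins, 4 of 6 priming factors, 1 of 5 Rab3 and rabphilin genes, 5 of 6 membrane proteins, both recycling genes and all 3 disassembly genes. Syt5, Syt6, Syt7, Vamp3, Stx1a, Rims3, Rab3b and Rph3a fell. Over the same interval the bipolar markers rose from 187 to 2164, the rod markers from 50.4 to 775 and the erythroid markers from 106 to 5170.0, while the progenitor markers fell from 558 to 18.0, and their part in these rises was not tested.

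Within Cd73PC the change was smaller. From P2 to P8, 12 release genes rose (19 under quantile normalization), against 6.41% of all genes and 11.2% of those with an FPKM of at least 1, and 9 fell, against 14.7% and, of genes with an FPKM of at least 1, 25.7%, with a median log2 ratio of 0.18. Syngr1 (1.24), Nsf (1.14), Vamp2 (1.01) and Syngr3 (1.01) rose most. Syt6 (-2.57), Cplx1 (-1.94), Rab3d (-1.38) and Rph3a (-1.16) fell most. Snap25 (0.21) and Sv2b (0.43) were within 1.5-fold. The fall of Cplx2 (-0.63) was below 1.5-fold under both upper-quartile scaling and quantile normalization. Over this interval the rod markers went from 3221 to 11862, the bipolar markers from 49.3 to 247, the erythroid markers from 36.5 to 2075 and the progenitor markers from 154 to 3.75, and their part was not tested.

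Between whole retina at E18 and the sorted fractions at P8, age, sorting and dissociation changed together and cannot be told apart. In Cd73NC at P8, 22 release genes stood at least 1.5-fold above E18. Of all genes 10.8% did so, and 17.2% of those with an FPKM of at least 1. Below E18 stood 12 (27.9%), near the 24.5% of such genes and against 15.1% of all genes. In Cd73PC at P8, 16 stood above E18, against 10.7% of all genes and 17.6% of such genes. Below it stood 22, against 24.9% and 40.5%. Among the genes below E18 in both fractions were Rph3a (-4.12 in Cd73NC and -5.12 in Cd73PC), Syt6 (-3.28 and -3.44) and Syt5 (-2.67 and -3.84). Ganglion cell markers went from 529.9 at E18 to 2.83 and 2.26 at P8. In Cd73NC at P2 these markers were already at 13.4, with Rph3a at 8.61 and Syt5 at 5.94. Syt6, however, was at 21.1 in that library, above its 10.1 at E18. The part of the ganglion cell markers was not tested.

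Of the 43 release genes, 18 were highest in the P8 Cd73NC library, or 41.9%, against 15.3% of all genes and 16.8% of those reaching FPKM 1. The remaining genes were highest at E18 (8), at E15 (6), in Cd73PC at P8 (5), in Cd73NC at P2 (2), in Cd73PC at P5 (2), in Cd73PC at P2 (1) and in Cd73NC at P5 (1). A further pattern was chosen for description after its values were seen. In 8 release genes, Syt3, Syt4, Syt13, Syn1, Cplx1, Rab3c, Sv2a and Syngr3, the level fell from whole retina at E18 to Cd73NC at P5 and rose from P5 to P8 within Cd73NC, as it did in 2.97% of all genes and 4.89% of those reaching FPKM 1. Syt13 measured 21.0 at E18, 0.520 in Cd73NC at P5 and 14.1 at P8. Syt4 measured 48.1, 3.35 and 32.4, and Syngr3 14.3, 0.951 and 15.1. The fall spans age and sorting together, and within Cd73NC Syt3, Syn1, Cplx1 and Sv2a were not lower at P5 than at P2. Ganglion cell markers went from 529.9 at E18 to 1.84 in Cd73NC at P5 and bipolar markers from 452 at P5 to 2164 at P8, and their part was not tested.

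Other genes of the release pathway, listed by role, were set beside the 43. The shares of all genes called higher in Cd73PC were 8.57%, 7.02% and 7.54% at P2, P5 and P8 (14.5%, 12.3% and 13.0% with an FPKM of at least 1), and those called lower 14.4%, 15.6% and 18.6% (25.0%, 27.0% and 31.3%), and the counts of each list are to be read against them. Of 24 further SNAREs and regulators, 7, 4 and 4 were higher in Cd73PC at P2, P5 and P8 and 7, 10 and 8 were lower. Cplx4, Stx3 and the calcium sensor Doc2b were higher at all ages, and the vesicle protein Synpr, the priming factor Cadps and Syt16 were among the 4 that were lower at all ages. Doc2b had log2 ratios of 2.93, 2.07 and 3.20, and Cadps of -1.04, -1.71 and -2.86.

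Of 12 active zone and ribbon genes with values in all 8 libraries, 2 were higher at each age and 3, 3 and 5 were lower, against the same shares. Ppfia2, which has no value in 3 libraries and is not in these counts, measured 21.7 in Cd73PC and 5.21 in Cd73NC at P2 (1.87). Unc119, a lipid-binding protein abundant in photoreceptors, was higher throughout and measured 815, 1446 and 1570.3 in Cd73PC and 101, 419 and 479.7 in Cd73NC. Lin7a (-1.33, -2.13 and -2.88) and the scaffold gene Erc1 (-1.23, -1.27 and -2.19) were lower throughout. Of 15 vesicle transporter and proton pump genes, 6, 2 and 1 were higher and 2, 1 and 1 lower, and the P8 counts are near or below the shares over all genes. Slc17a7, the vesicular glutamate transporter VGLUT1, measured 72.7, 239 and 505 in Cd73PC and 4.49, 43.6 and 174 in Cd73NC, and Slc32a1, the transporter for GABA and glycine, measured 3.62, 0.752 and 0.401 in Cd73PC and 16.0, 4.21 and 1.21 in Cd73NC.

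Of 23 endocytosis and clathrin genes, 7, 8 and 5 were higher and 2, 5 and 8 lower, where 7.54% of all genes were higher and 18.6% lower at P8. Dnm3, a dynamin, was higher at all ages (1.12, 1.04 and 2.06), as was the clathrin adaptor subunit Ap2m1 (0.81, 1.20 and 0.98). Sh3gl3 (-0.96, -0.71 and -1.95) and Itsn1 (-0.59, -0.66 and -0.70) were lower at all ages. Within Cd73NC from P2 to P8, 12 of the 23 rose and none fell, and 9 of the 12 active zone genes rose and none fell, against rises in 13.5% of all genes and 21.6% of those with an FPKM of at least 1. Ppfia2 rose as well, from 5.21 to 16.3 (1.48).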

How the data were processed

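Poly(A) RNA of 8 retinal samples was sequenced as 36-base single-end Illumina reads without strand. Per the submitters' processing notes, the authors used CASAVA 1.8.2, bcl2fastq 1.8.4, TopHat2 2.0.8b and Cufflinks 2.1.1 with build NCBI37/mm9, and deposited FPKM values with confidence bounds for 23021 rows per library. These bounds cover the estimate within a library, and 292 of the 344 member values lay inside their own bounds. Those outside included Syp, Vamp2 and Rab3a in every library, and Snap25 and Cplx2 in every Cd73PC library. Rows marked as failed (4 to 10 per library, no member) were taken as missing, 794 small RNA rows were left out, and rows sharing a symbol were summed, which left 21830 genes. Ratios were taken on FPKM + 1, with a call at 1.5-fold and no test, since each condition had 1 library. Alternatives were a pseudocount of 0.1, a filter at FPKM 1, upper-quartile scaling, quantile normalization, a threshold of 2-fold, the highest row per symbol, non-overlapping bounds and leaving out P5. Relative depth came from steps worth 1 read in rows below FPKM 0.3.

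The members and lists were chosen with earlier results of these data known. Values in every library are given, per role, for the member with the highest mean FPKM, the member with the largest mean difference between fractions, and any member higher in Cd73PC at 1 or more ages. For each further list, up to 3 genes per direction, past 1.5-fold at all 3 ages, were named by largest mean log2 ratio. A gene of these lists is not reported here. Others named were chosen after their values were seen. Python 3.11.15, numpy 2.4.6, pandas 2.3.3 and matplotlib 3.10.9 were used, and the scripts were tested on simulated data.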

Additional observations from a re-analysis of the deposited data

Results flagged for a closer look

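In 4 release genes the difference between the fractions pointed one way at P2 and the other way at P8, each past 1.5-fold, and with 1 library per condition the change between the ages was not tested. The log2 ratio of Cd73PC over Cd73NC of Cplx1 was 1.41 at P2 and -2.93 at P8. That of Sv2a was 0.70 at P2 and -1.14 at P8. Unc13a went from 0.66 to -0.91, and Napb from 0.83 to -0.61. The P8 call of Napb was lost under upper-quartile scaling and quantile normalization, and that of Unc13a under quantile normalization. In Cplx1 the Cd73PC level itself fell (13.5 to 2.78 FPKM), whereas in Sv2a (24.6 to 34.9), Unc13a (4.52 to 5.03) and Napb (21.3 to 40.3) it did not fall and the Cd73NC level rose.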

How the results depend on the processing

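The paper states that both fractions of an age came from the same retinal samples, so they form a pair. With 1 library per condition, no paired test was possible within an age. No member called under the main settings was called in the opposite direction under another pseudocount, filter or scaling, but the balance of calls at P5 (13 higher and 10 lower) turned with a pseudocount of 0.1 (13 and 16). With that pseudocount the balance at P2 (19 higher and 14 lower) narrowed to 19 and 18. Counts of members moved by over 1.5 times in these cases. With that pseudocount, 16 were lower in Cd73PC at P5 and 13 at all 3 ages, where 6 were higher. With genes filtered at FPKM 1, the median log2 ratio at P2 was 0.66. With quantile normalization, 19 rose from P2 to P8 within Cd73PC and 1 (Rims3) went from lower at P2 to higher at P8. At 2-fold, 12 were higher at P2 and 5 at P5, 4 were lower at P5 and 3 at all 3 ages, 1 rose and 1 fell from E15 to E18, 4 rose and 4 fell from P2 to P8 within Cd73PC, and 1 went from higher at P2 to lower at P8. Without P5, 10 were lower at both remaining ages and 6 higher. With fewer genes tested or a higher fold the counts change by construction, and for the other settings the cause was not tested. Upper-quartile scaling and non-overlapping bounds moved none of these values by that much. Taking the highest row per symbol could not change a member's value, since each of the 43 genes has 1 row, so that setting shows nothing here. For Syp, Vamp2 and Rab3a the value itself lay outside its bounds in every library, which limits what the bounds can show there. Weak genes limit what the depth can show: Syt12, Syn2, Vamp1 and Sv2c were below FPKM 1 in all sorted libraries.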
